A study of Rattus norvegicus with 3 samples.

Results

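The 10 genes described here encode the core of the circadian clock, and their transcripts were measured by RNA sequencing in cultures labelled as Schwann cell precursors. They were chosen by name as Arntl, Clock, Per1, Per2, Per3, Cry1, Cry2, Nr1d1, Nr1d2 and Dbp, and all 10 were found among the 17337 genes of the deposited table. The study comprised 1 group of 3 libraries, made from untreated wild-type cells (Schwann cell precursors are an early stage of the glia of nerves) that were isolated from dorsal root ganglia of embryonic rats and grown in a modified Sato medium. The labels state neither a stage of gestation nor the time of harvest, and whether the libraries stand for separate cultures is not stated either, so all spreads and p-values here describe these libraries and may be technical. With 1 group and 1 time, the data give levels and their spread, not a rhythm.

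The circadian clock is a feedback loop of transcription that most mammalian cells carry. The proteins ARNTL (also called BMAL1) and CLOCK bind E-box elements as a dimer and switch on the Period, Cryptochrome and REV-ERB genes (Nr1d1 and Nr1d2) as well as Dbp. PER and CRY proteins then enter the nucleus and repress the dimer, while the REV-ERB proteins repress Arntl through ROR elements, where ROR receptors activate. DBP and its relatives act at D-box elements, which add a further arm. In cultured peripheral cells the loop runs in each cell, and cells of a dish drift out of step unless they are synchronised, so that a bulk library averages over phases.

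The letters of these elements were looked up in RefSeq promoter windows of the GRCr8 assembly, which reach from 250 bases before to 50 bases after a transcript start. Of the 10 genes, 9 had a window and 11 windows were available, since Nr1d1 and Clock had more than 1 each. The 3 windows below are shown because each holds an element through which one arm of the loop acts, with the matching letters in capitals. The window of Nr1d1 (chr10:84229405-84229704, minus strand) holds the E-box CACGTG at position -191 from the start, that of Per2 (chr9:99496944-99497243, minus strand) holds the D-box TTATGTAA at -192 and the E-box variant CACGTT at -62, and that of Arntl (chr1:176766078-176766377, plus strand) holds the ROR half-site AGGTCA at -15. All are written 5′ to 3′ on the strand of the gene.
Nr1d1: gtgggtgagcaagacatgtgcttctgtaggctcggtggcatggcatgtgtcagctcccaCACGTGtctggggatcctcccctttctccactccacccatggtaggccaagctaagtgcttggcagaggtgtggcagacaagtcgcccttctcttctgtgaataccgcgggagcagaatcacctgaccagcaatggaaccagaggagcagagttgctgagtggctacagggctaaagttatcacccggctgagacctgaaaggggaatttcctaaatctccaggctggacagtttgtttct
Per2: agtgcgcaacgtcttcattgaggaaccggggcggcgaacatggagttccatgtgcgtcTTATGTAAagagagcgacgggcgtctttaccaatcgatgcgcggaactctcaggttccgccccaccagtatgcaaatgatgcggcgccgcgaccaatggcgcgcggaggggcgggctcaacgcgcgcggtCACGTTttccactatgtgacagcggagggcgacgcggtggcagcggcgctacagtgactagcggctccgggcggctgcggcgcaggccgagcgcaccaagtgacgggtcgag
Arntl: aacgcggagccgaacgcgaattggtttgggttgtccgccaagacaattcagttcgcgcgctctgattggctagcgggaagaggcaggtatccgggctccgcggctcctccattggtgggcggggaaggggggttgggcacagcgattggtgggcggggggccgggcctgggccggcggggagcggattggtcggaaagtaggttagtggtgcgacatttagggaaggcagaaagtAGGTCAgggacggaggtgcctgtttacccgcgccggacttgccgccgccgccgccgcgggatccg
Both strands were searched, and the letters are not confined to clock genes. CACGTG was present in 6.42% of all 33469 windows, CACGTT in 4.83%, AGGTCA in 16.2% and TTATGTAA in 0.893%. Among the 11 windows of the clock genes CACGTG was in 1, that of Nr1d1 shown above. CACGTT was also found in a window of Cry2 and in the other window of Nr1d1, and AGGTCA in that of Nr1d2. The windows of Dbp, Per1, Per3 and Clock held none of the letters searched. The cAMP response element TGACGTCA, present in 1.83% of all windows, was in none of the 11. A match describes the letters only, and binding was not measured.

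Total counts were between 14139074 and 15309526 per library, and 10513 genes reached 1 TPM in every library. TPM is the count over the length of the gene, scaled to a common total in every library. The labelled cell type was checked against fixed markers. All 7 measured Schwann cell precursor markers, among them Sox10 at 612 ± 26.0 TPM and Erbb3 at 581 ± 14.3 TPM (SD, n = 3), reached 1 TPM in every library, with a summed level of 9730 to 9953 TPM. All 5 fibroblast markers were also present, with a summed level of 7494 to 7669 TPM. The 6 sensory neuron markers summed to 379 to 401 TPM, the 4 endothelial markers to 29.2 to 32.0 TPM and the 4 macrophage markers to 6.57 to 10.6 TPM. Of the endothelial markers, Cdh5 (mean 16.65 TPM) and Emcn (mean 13.68 TPM) reached 1 TPM in every library. Pecam1, at 0 in replicate 1, and Kdr were under 1 TPM in every library. Of the macrophage markers, Cd68 (mean 5.10 TPM) and Csf1r (mean 2.31 TPM) reached 1 TPM in every library. Ptprc was under 1 TPM in every library and Aif1 in replicate 3. Most cell types carry a clock, and the part of these other cells in the levels below was not tested. In bulk RNA, fewer cells of a type and less RNA per cell cannot be told apart.

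Every clock gene was expressed, and the levels within each arm of the loop were unequal. All 10 genes were above 1 TPM by limma (largest adjusted p = 2.29e-07), against 78.4% of all 13345 genes tested, and none was below, against 17.8% of those genes, so that the counts do not set them apart. Dbp and Nr1d1 were the most abundant at about 70 and 65 TPM, and Per2 was the least abundant at 6.83 TPM. The median over the 10 genes was 35.2 TPM, close to the 34.3 TPM of the genes that reached 1 TPM in every library. Of these detected genes 28.5% were higher than Dbp, 47.5% higher than Cry2 and 85.1% higher than Per2. Each gene lay at 1 place in the rn6 genome, on the chromosome given with it, and each rested on 835 to 4577 counts over the 3 libraries.

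The activators differed from each other. Arntl (NCBI gene 29657, plus strand of chromosome 1, 178039063 to 178137471, 21 listed exons) was at 47.8, 44.5 and 48.6 TPM in replicates 1, 2 and 3, from 1051, 912 and 996 counts. Clock (NCBI gene 60447, plus strand of chromosome 14, 34455934 to 34502218, 20 exons) was at 17.6, 17.2 and 15.4 TPM, from 1211, 1097 and 987 counts. Arntl was thus the higher partner in every library with no overlap, by a log2 ratio of TPM of 1.48 ± 0.08 (SE from limma), or 2.80-fold. Clock had more counts than Arntl in replicates 1 and 2, but they are spread over a listed length of 9294 bases, against 2979 for Arntl. Npas2, a paralog that can take the place of CLOCK in the dimer, was at 44.8, 44.9 and 44.8 TPM. Npas2 was thereby 2.67-fold higher than Clock (log2 ratio 1.42 ± 0.08). Arntl2, the paralog of Arntl, was at 7.93, 9.13 and 7.07 TPM, lower than Arntl in every library (log2 ratio -2.54 ± 0.10).

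The 3 Period genes, whose products carry the repressing complex into the nucleus, spanned a wider range than the cryptochrome or the REV-ERB genes. Per3 (NCBI gene 78962, minus strand of chromosome 5, 168088126 to 168123030, 21 exons) was the highest, at 34.6, 33.2 and 32.0 TPM. Per1 (NCBI gene 287422, plus strand of chromosome 10, 55687124 to 55696020, 22 exons) was at 23.5, 25.9 and 24.5 TPM. Per2 (NCBI gene 63840, minus strand of chromosome 9, 98555156 to 98597323, 23 exons) was at 7.90, 6.11 and 6.48 TPM, from 336, 242 and 257 counts. The order Per3, Per1, Per2 held in each of the 3 libraries without overlap. Per2 was lower than Per1 by a log2 ratio of -1.84 ± 0.12, while Per3 exceeded Per1 by 0.43 ± 0.07 and Per2 by 2.28 ± 0.14, or 4.84-fold. In the mouse, loss of Per1 or Per2 disturbs behavioural rhythms more than loss of Per3, which is held to have a lesser part in the core loop.

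Of the cryptochromes, the repressors that bind the CLOCK and ARNTL dimer directly, Cry2 was the more abundant. Cry2 (NCBI gene 170917, minus strand of chromosome 3, 81314151 to 81344109, 12 exons) was at 37.9, 37.2 and 36.5 TPM. Cry1 (NCBI gene 299691, plus strand of chromosome 7, 24534615 to 24634098, 13 exons) was at 14.4, 13.6 and 14.3 TPM, from 310, 273 and 288 counts. Cry2 exceeded Cry1 by a log2 ratio of 1.39 ± 0.04, or 2.63-fold, and no value of one gene came near those of the other. Cry1 was also lower than Per1 in each library (log2 ratio -0.80 ± 0.09).

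The REV-ERB genes were high as a pair. Nr1d2 (NCBI gene 259241, plus strand of chromosome 15, 8730871 to 8757165, 8 exons), which encodes REV-ERB beta, was at 47.5, 45.5 and 47.8 TPM. Nr1d1 (NCBI gene 252917, minus strand of chromosome 10, 86683875 to 86690815, 9 exons), which encodes REV-ERB alpha, was at 66.3, 68.2 and 60.8 TPM. Nr1d2 was the lower of the pair in every library (log2 ratio -0.47 ± 0.07). Nr1d1 also exceeded Arntl, the gene its product represses, by a log2 ratio of 0.47 ± 0.05 in 3 of 3 libraries. Exons of Nr1d1 share 263 bases, or 10.3% of its listed length, with Thra, a thyroid hormone receptor gene on the opposite strand that was at 63.3 ± 1.15 TPM. For counting, neither the strand setting nor the handling of shared bases is given in the sources used here. The level of Nr1d1 is therefore less certain than that of Nr1d2. No other clock or companion gene shared exon bases with a gene of the table.

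Dbp, the D-box activator often used as a readout of clock output, had the highest mean of the 10, but Nr1d1 was above it in replicate 1. Dbp (NCBI gene 24309, plus strand of chromosome 1, 101687896 to 101692845, 5 exons) was at 64.3, 78.0 and 67.7 TPM, from 789, 890 and 774 counts. Tef, which encodes a related activator of the same sites, was at 51.6, 51.7 and 49.0 TPM, below Dbp in each library (log2 ratio -0.46 ± 0.11). Nfil3, which encodes a repressor that competes for D-boxes, was at 19.7, 21.7 and 22.0 TPM, a log2 ratio to Dbp of -1.72 ± 0.12. Dbp and Tef, the activators of this arm that were measured, each stood above the repressor gene in all 3 libraries. Without replicate 3 the difference between Tef and Dbp no longer passed (log2 ratio -0.45, limma adjusted p = 0.0905).

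**Figure D1:**
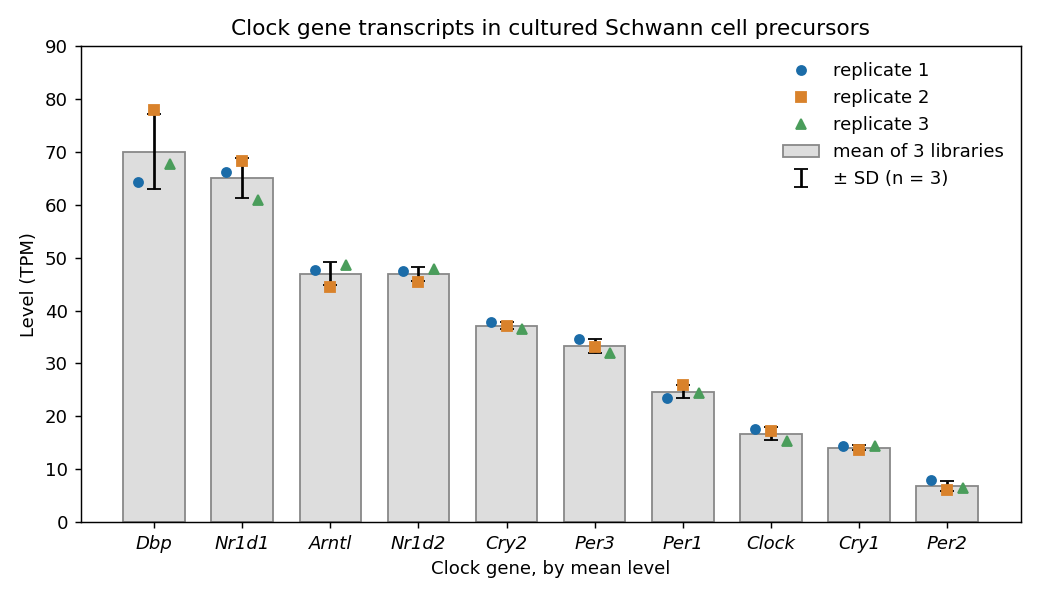
Level of each clock gene in TPM, ordered by mean; bars give the mean of the 3 libraries, error bars the SD (n = 3) and symbols the libraries. The means run from 70.0 TPM for Dbp to 6.83 TPM for Per2, and the symbols of Dbp and Nr1d1 overlap, as do those of Arntl and Nr1d2.

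Summed by role, the REV-ERB transcripts reached 114, 114 and 109 TPM in the 3 libraries. The Period genes summed to 66.0, 65.3 and 63.0 TPM, the activators Arntl and Clock to 65.4, 61.7 and 64.0 TPM, and the cryptochromes to 52.2, 50.8 and 50.8 TPM. Of these 4 sums that for the REV-ERB genes was the highest and that for the cryptochromes the lowest in each library, while Period genes and activators overlapped. This ranking holds for the listed members only, with 3 Period genes against 2 genes of each other role. The activator sum leaves out the paralogs Npas2 (mean 44.8 TPM) and Arntl2 (mean 8.04 TPM). The REV-ERB sum includes Nr1d1, whose level is less certain.

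Of 17 planned pairs of related genes 13 were measured, and all 13 passed by limma, the largest adjusted p being 0.000165. In the same fits the share of all 13344 other genes that differed from the partner gene in either direction was 93.4% for Dbp, 95.2% for Clock, 95.5% for Per1, 95.8% for Per2, 95.9% for Nr1d1, 96.0% for Per3, 96.1% for Arntl, 96.7% for Nr1d2, 96.8% for Cry1, 97.0% for Cry2 and 99.2% for Csnk1d. A difference in level between any pair of genes is thus the rule in these data, and the count of pairs that passed lies near that background. In 5 of the 11 fits, that for Dbp among them, the prior degrees of freedom were infinite, so the p-values of those fits do not use the spread of the single gene. An alternative took the variance of each gene separately, still moderated by limma with a trend over all genes, and added the variances of both genes. Its 10.1 to 15.2 degrees of freedom for the pairs thus draw on other genes too. With these separate variances the largest adjusted p over the pairs was 0.000102, and 95.3% to 99.1% of genes differed from a partner. Ratios also depend on the listed lengths, 1660 to 9294 bases for the clock genes, and on how evenly reads are recovered along transcripts, for which there is no measure here.

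**Figure D2:**
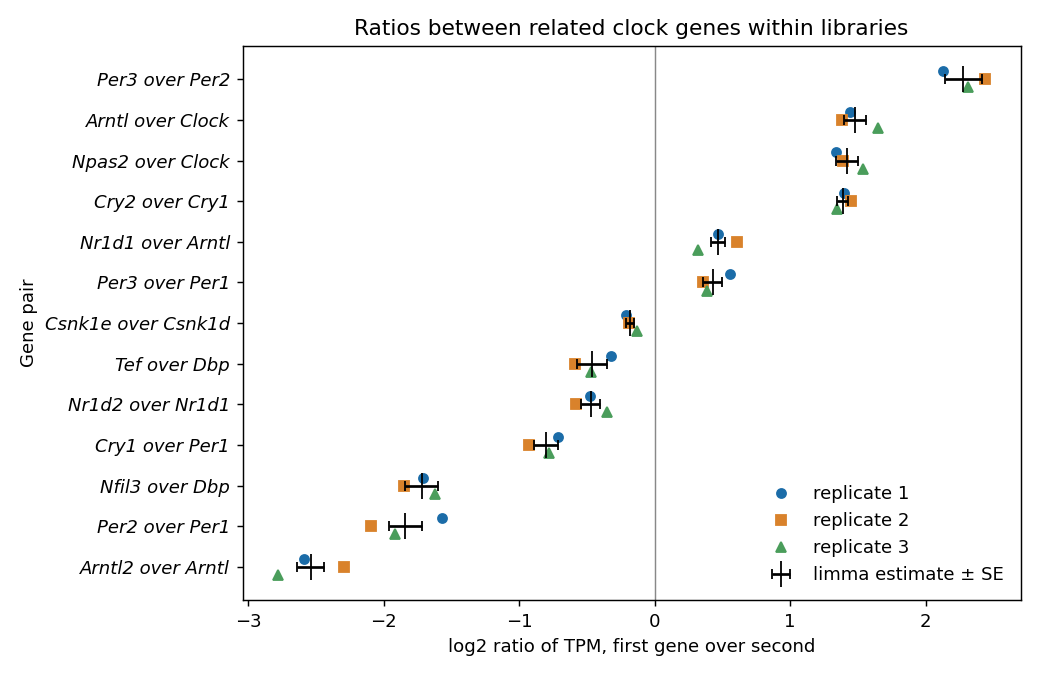
Log2 ratio of TPM between related clock genes, first gene over second; symbols give the libraries and the black mark the limma estimate ± SE. All 3 symbols lie on one side of 0 for each of the 13 pairs, from -2.54 for Arntl2 over Arntl to 2.28 for Per3 over Per2.

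The order by mean TPM was Dbp, Nr1d1, Arntl, Nr1d2, Cry2, Per3, Per1, Clock, Cry1 and Per2. Of the 9 steps from one gene to the next lower one, 7 passed by limma, with a largest adjusted p of 0.00401, or 0.00836 with separate variances. Since 95.2% to 97.0% of all genes differed from these partners, that count is no result about the clock genes. Dbp and Nr1d1 could not be put in order, since their ranges overlapped and Dbp was higher in 2 of 3 libraries (log2 ratio 0.10 ± 0.07, limma adjusted p = 0.124). The 95% interval of that difference was -0.03 to 0.24. It came from the moderated variances of both genes (14 degrees of freedom) and did not use their pairing within libraries. Arntl and Nr1d2 were at 47.0 ± 2.14 and 46.9 ± 1.29 TPM, with a log2 ratio of 0.00 (limma adjusted p = 0.997). The interval around it, found in the same way, was -0.10 to 0.10. The smallest steps that passed were Cry2 over Per3 (0.16 ± 0.04, limma adjusted p = 0.00401) and Clock over Cry1 (0.25 ± 0.06, limma adjusted p = 0.00374). The step of largest size was Cry1 over Per2, at 1.04 ± 0.14.

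The median clock gene was about as steady between libraries as the median gene of like level. The ratio of the highest to the lowest library had a median of 1.10 over the 10 genes, equal after rounding to that of the 7229 genes with a mean of 5 to 100 TPM, and the median coefficient of variation was 4.80% against 4.74%. Cry2 was the steadiest, with a ratio of 1.04, and Nr1d2 and Cry1 followed at 1.05 and 1.06. Per2 had the largest ratio, 1.29, which 5.46% of those 7229 genes reached, and Dbp followed at 1.21, which 12.8% reached. The order of the libraries was opposite for this pair. Per2 was highest in replicate 1 and lowest in replicate 2, whereas Dbp was lowest in replicate 1 and highest in replicate 2.

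Raw counts were compared between single libraries with an exact conditional binomial test given the library totals, which compares those libraries and not conditions. Dbp was lower in replicate 1 than in replicate 2, with a fold of 0.819 and an adjusted p = 0.00296 in this exact test. This test allows for counting error alone, whereas over all genes these 2 libraries differed by more than that (chi-square per degree of freedom 2.35), so its p-values are too small as a measure of a difference beyond the usual spread between libraries. Dbp was the only one of the 10 clock genes that passed between replicates 1 and 2, where 4.10% of 10943 genes passed, and 3 of the 10 (Dbp, Per1 and Per2) were at an unadjusted p under 0.05, as 16.3% of all genes were. Per2 differed by 1.28-fold in the opposite direction, but its adjusted p in the exact test was 0.0652. Between replicates 1 and 3 no clock gene passed by the exact test, while 2.09% of all genes did, and 2 clock genes (Per2 and Clock, both higher in replicate 1) were at an unadjusted p under 0.05, as 12.9% of all genes were. Between replicates 2 and 3 no clock gene passed by the exact test either, while 1.32% of all genes did, and 3 clock genes (Dbp, Nr1d1 and Clock, all higher in replicate 2) were at an unadjusted p under 0.05, as 11.6% of all genes were. For the 10 genes counting error alone gives a coefficient of variation between 2.56% (Nr1d2) and 6.06% (Per2), so differences of that size between libraries were not detectable at this depth.

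**Figure D3:**
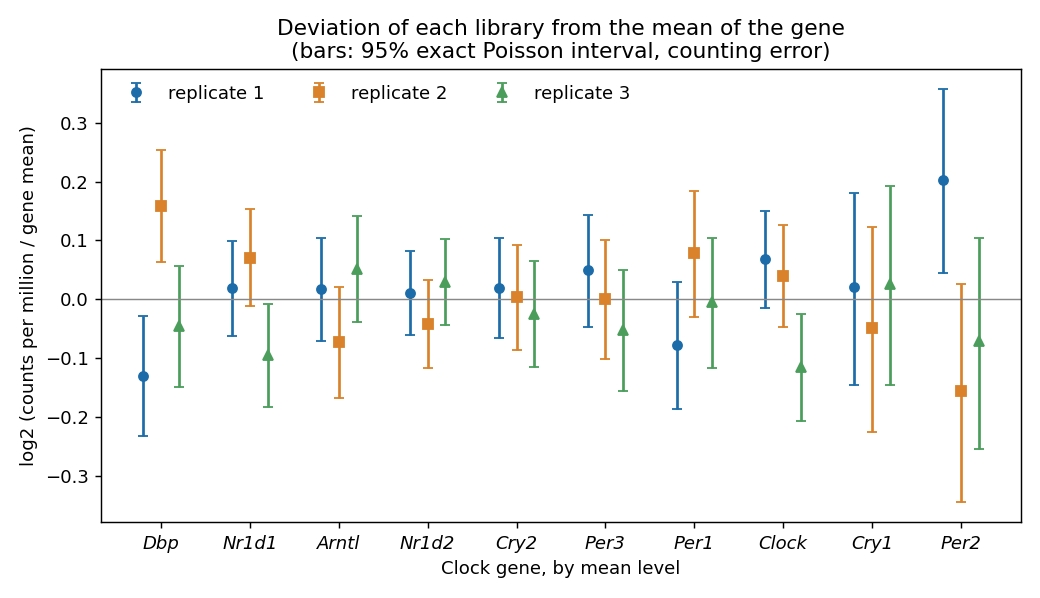
Counts of each clock gene in each library, scaled to the library total (CPM), relative to the mean of the gene, on a log2 scale; bars are 95% exact Poisson intervals for counting error. The intervals of Dbp in replicates 1 and 2 lie apart, as do those of Per2, in the opposite direction, while those of the other genes overlap between these 2 libraries.

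Companion genes that tune the loop were read from a list of 32, of which 25 were measured (some are named here for their values) and 7 were not analysed here. All 25 were above 1 TPM by limma (largest adjusted p = 1.76e-05), against the 78.4% of all genes tested, and none was under 1 TPM in any library. Csnk1a1, casein kinase 1 alpha, was at 439, 439 and 425 TPM. The kinases that phosphorylate Period proteins and set their stability, Csnk1e and Csnk1d, were at 133 ± 3.98 and 150.2 ± 1.35 TPM, with Csnk1e lower in every library (log2 ratio -0.18 ± 0.03). Csnk2a1 was at 166.8 ± 12.5, Gsk3b at 120.5 ± 3.40 and Prkaa1, a subunit of the AMP-activated kinase, at 20.5 ± 0.978 TPM. All kinases but Prkaa1 were thus higher in mean level than any of the 10 clock genes.

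The genes for protein turnover given here lay between 8.49 and 92.6 TPM on average. Fbxw11 and Btrc, F-box genes whose products mark Period proteins for breakdown, were at 92.6 ± 1.04 and 27.8 ± 3.02 TPM. The deubiquitinase gene Usp2 was at 8.49 ± 0.565 TPM. Among cofactors the RNA-binding protein gene Nono was the highest, at 525, 507 and 519 TPM. Hdac3 and Ncor1, whose products form the complex through which REV-ERB proteins repress, were at 92.6 ± 3.09 and 55.2 ± 1.71 TPM, and Timeless was the lowest cofactor at 9.47 ± 0.711 TPM.

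The further repressors of the loop and Rorb lay in the lower part of the range. The E-box repressor Bhlhe40 was at 21.2, 18.7 and 22.1 TPM. Ciart, which encodes a further repressor of the CLOCK and ARNTL dimer, was at 6.59, 6.57 and 4.72 TPM. Rorb, the one ROR receptor measured and an opponent of the REV-ERB proteins, was the lowest of all 25 at 2.86, 2.40 and 2.83 TPM, from 50, 39 and 46 counts. Nr1d1 and Nr1d2 stood far above Rorb in each library. Among outputs, the NAD synthesis gene Nampt was at 32.4 ± 0.418 TPM and the cell cycle kinase gene Wee1 at 14.7 ± 0.638 TPM.

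**Figure D4:**
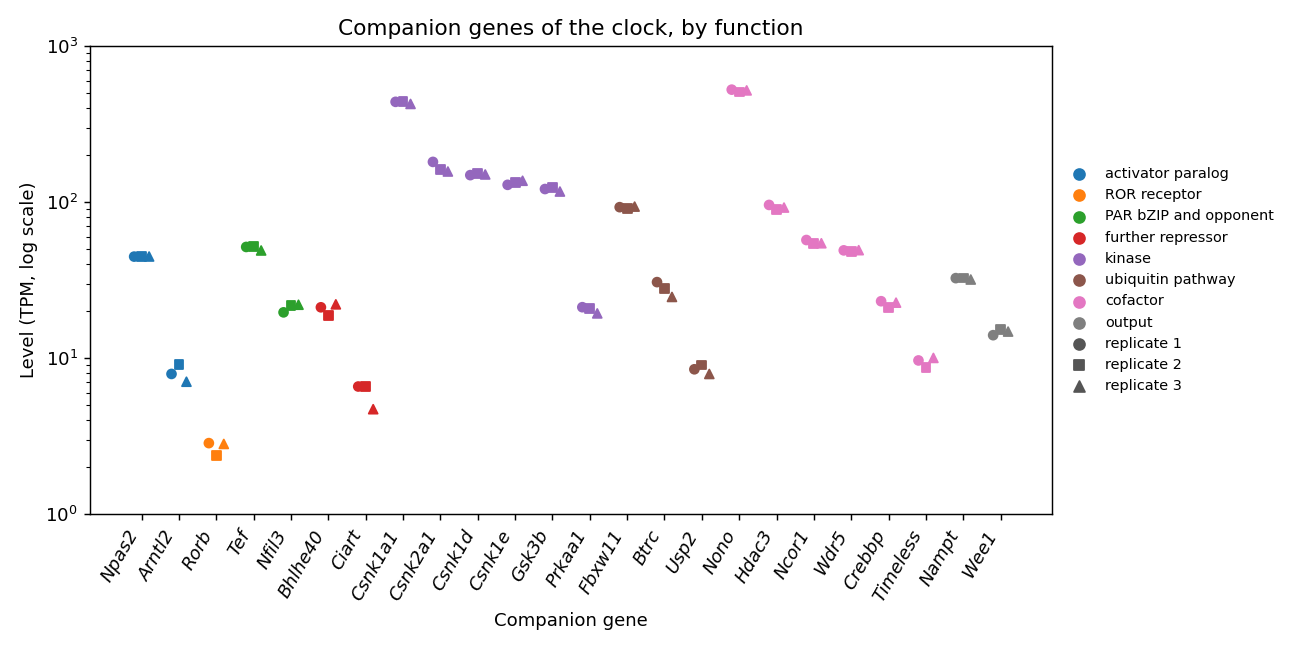
Level of companion genes in TPM on a log axis, grouped by function (colour) with 1 symbol per library. Kinases and Nono reach over 100 TPM in each library apart from Prkaa1, and Rorb is the lowest, at 2.40 to 2.86 TPM.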

How the data were processed

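The 3 libraries were prepared with a stranded poly(A) kit, per the labels' protocols. The submitters' processing notes list the aligner STAR (2.5.2b), Subread and rn6. For annotation, strand setting and multiply matching reads the settings were not given in the sources used here. The authors deposited raw counts per gene, a length-divided signal (counts over length, left unused) and TPM values. Recomputed TPM differed by at most 0.0005 TPM (tolerance 0.001). Both rows lacking a symbol and 6 columns of totals were left out.

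The members and lists were chosen with earlier results of these data known. Levels were tested with limma 3.58.1 (R 4.3.3) on log2(TPM + 1) against 1 TPM, over 13345 genes with a count. Tests were two-sided, with Benjamini-Hochberg adjustment and a threshold of 0.05. The pseudocount understates differences of low genes. Ratios used log2 of TPM with 0.1 added, fitted over all genes for each partner. Libraries were compared with the exact binomial test of edgeR 4.0.16, over genes whose counts in both libraries summed to 20 or more. A chi-square statistic per degree of freedom of 1.67 to 2.35 between libraries was above the sampling noise of about 1, so each was counted as a library of its own. The Poisson intervals cover counting error only, as reads carry no molecular identifiers. The intervals of log2 ratios came from the limma-moderated variances of both genes between libraries, added without regard to the pairing of genes within a library. The level test, the ratio tests (with Clock as partner) and the exact test were tried on simulated data, and the other steps were not. Counts for the exact test were simulated with counting error alone, so that trial did not cover the extra spread between libraries. For the level and ratio tests the same extra spread was set for all genes. Named genes are all members, pair genes, and the highest of each companion subgroup. Other companions were named after their values were seen. Some companion genes are not reported here. Alternatives changed pseudocounts, filters, scaling (TMM, and size factors of DESeq2 1.42.0), the variance model and the libraries used. Symbols came from the table, and RefSeq promoters from GRCr8 were matched by gene identifier.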

Additional observations from a re-analysis of the deposited data

How the results depend on the processing

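Of 265 recomputed main values 258 kept their direction and their side of the threshold, or for counts stayed within 1.5 times, and so did 129 of 130 tests of single clock genes against 1 TPM. All 10 clock genes were above the tested level in each alternative except at 10 TPM, where 9 were above and 1, Per2, was below (log2 difference -0.50). The number of all genes below the level was 6235 with no filter on low values, 1372 when genes under a mean of 0.1 TPM were dropped, 3836 at a level of 5 TPM and 4735 at 10 TPM, in place of 2374. Leaving out each library in turn gave Tef over Dbp log2 ratios of -0.53 to -0.39, which did not pass without replicate 3 (limma adjusted p = 0.0905, with an SE of 0.258 from 2 libraries). Arntl over Nr1d2 was between -0.01 and 0.01 and passed in no alternative. The separate variances of both genes were an alternative chosen after seeing the data. The exact test of Dbp between replicates 1 and 2 gave adjusted p-values of 0.00178 to 0.00355 over its alternatives, and that of Per2 0.0541 to 0.0793. No pairing of samples between groups was possible because all libraries belong to 1 group. The limma ratios compared genes within each library, whereas the alternative with separate variances did not use this pairing. Rorb, with 50, 39 and 46 counts, is the companion gene whose level is most limited by depth.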
